A study of Mus musculus with 15 samples.

Results

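The 46 genes described here encode the folding, quality-control and stress-signalling machinery of the endoplasmic reticulum (ER). They were chosen as a list of symbols by known function, by a rule that uses no measured value but with earlier results of these data known, and all 46 were found among the 55487 genes of the deposited gene table. RNA was measured by polyA-selected RNA-seq in female C57BL6/CAST hybrid mouse cells that the labels call TTF, an abbreviation they do not spell out. The tested cells were of the SIRT7-KO genotype, which lacks the nuclear deacylase SIRT7, in 3 libraries titled c2, c9 and c22 and called KO 2, KO 9 and KO 22 here. The comparison cells carried SIRT7 and gave 3 libraries, WT 1, WT 2 and WT 3. How SIRT7 was removed, and whether the WT libraries came from separate cultures, is not given in the labels. The p-values therefore cover only the differences among these libraries, which for the WT libraries may be technical. A further 9 libraries (earlier SIRT7-KO replicates, SIRT7-KO cells given SIRT7-WT back, and SIRT7-HY cells) were not analysed here. The earlier SIRT7-KO replicates carry no line number and may be of the same lines, so the match of KO columns to titles rests on the number alone. The WT titles have the form of those earlier replicates and not that of c2, c9 and c22. Whether WT and KO libraries were prepared together is not stated, so such a difference and SIRT7 loss cannot be told apart in any comparison below. The series as a whole asks about SIRT7 and dosage compensation of the X chromosome.

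Secreted and membrane proteins enter the ER through the Sec61 channel, fold there with the help of chaperones and disulfide-forming enzymes, and leave in COPII vesicles. Chains that fail to fold are drawn back to the cytosol and degraded. When unfolded chains build up, the sensors IRE1 (gene Ern1), PERK (gene Eif2ak3) and ATF6 start the unfolded protein response, in which ATF6 and spliced XBP1 switch on chaperone genes through promoter elements such as the ER stress response element (ERSE), while PERK slows protein synthesis and raises ATF4. Cells that secrete much collagen, such as fibroblasts, use this machinery at a high rate without stress.

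The libraries held 61065582 to 61506413 estimated gene counts each, and 37.0% to 37.9% of the counts in the allele table were assigned to a genome. Levels are given as counts per 1000000 gene counts of the library (CPM). Pairwise Pearson correlations of log2(CPM + 1), over the 16678 genes that passed the filter on low counts, ran from 0.971 to 0.981 between KO libraries. Between WT libraries they ran from 0.995 to 0.996. The biological coefficient of variation was 0.378 in KO and 0.135 in WT. All 10 fibroblast markers reached a mean of 1 CPM, with summed levels of 23883 to 30827 CPM in KO and 14838 to 15063 CPM in WT. For Lum this rested on KO 2, with 6.08 CPM, against 0.28 to 1.13 CPM in the other libraries. Most of the summed level was collagen. Col1a1 alone had 11533, 14065 and 15827 CPM in KO 2, 9 and 22, against 7383, 7449 and 7390 CPM in WT 1, 2 and 3. Dcn, Thy1 and Pdgfra were low in some KO libraries. Thy1 was nearly absent in KO 9, at 0.195 CPM, against 98.6 to 101 CPM in WT. Of 7 keratinocyte, 6 immune and 5 endothelial markers, 1 each reached a mean of 1 CPM. So did 1 each of 4 Schwann, 4 adipocyte and 4 chondrocyte markers. The adipocyte marker was Fabp4, with 10.2, 3.73 and 39.9 CPM in KO 2, 9 and 22, and 14.7 to 18.6 CPM in WT. Skeletal muscle markers summed to 49.3 to 112 CPM in KO and 18.1 to 21.7 CPM in WT, nearly all of it Acta1, with Myod1, Myog and Pax7 at 0 in every library. In bulk RNA, fewer cells of a type and less RNA per cell cannot be told apart. At the targeted gene, Sirt7 had 512, 694 and 787 counts in KO 2, 9 and 22, against 833, 1107 and 598 in WT 1, 2 and 3, and the gene total did not pass the test (adjusted p 0.515). For Sirt7-201, a coding transcript, the estimates were 2, 0 and 0 in KO 2, 9 and 22, against 53, 58 and 159 in WT 1, 2 and 3. Another coding transcript, Sirt7-207, had 60, 129 and 0 in KO 2, 9 and 22, against 118, 11 and 68 in WT 1, 2 and 3, so it did not separate the groups.

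Because the known route from ER stress to these genes runs through promoter elements, the promoters of genes the results turn on are shown first. Hspa5 encodes BiP, the standard reporter of ER stress, and Hsp90b1, Pdia5, Pdia6 and Selenos are the genes with a listed promoter that rose in KO. Each window runs from 250 bases before to 50 bases after the gene start, 5′ to 3′ on the gene's strand, from RefSeq on GRCm38.p6. Capitals mark the full ERSE in Hspa5 (chr2:34771840-34772139, plus strand), Hsp90b1 (chr10:86705395-86705694, minus strand) and Pdia6 (chr12:17266339-17266638, plus strand). Pdia5 (chr16:35490824-35491123, minus strand) and Selenos (chr7:66079399-66079698, plus strand) had no full ERSE, and capitals mark its CCACG part on either strand.
Hspa5: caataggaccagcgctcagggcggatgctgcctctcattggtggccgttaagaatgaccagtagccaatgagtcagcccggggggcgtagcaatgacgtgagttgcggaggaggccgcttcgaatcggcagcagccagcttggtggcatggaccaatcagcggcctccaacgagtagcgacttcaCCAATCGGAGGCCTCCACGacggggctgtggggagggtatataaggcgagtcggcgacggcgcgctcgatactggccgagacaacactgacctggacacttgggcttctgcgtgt
Hsp90b1: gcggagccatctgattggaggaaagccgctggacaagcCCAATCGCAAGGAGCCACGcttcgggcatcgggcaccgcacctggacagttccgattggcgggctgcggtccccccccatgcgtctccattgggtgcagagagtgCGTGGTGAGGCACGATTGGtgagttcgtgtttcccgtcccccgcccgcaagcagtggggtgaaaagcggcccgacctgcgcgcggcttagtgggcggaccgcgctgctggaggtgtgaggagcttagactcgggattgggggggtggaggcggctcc
Pdia5: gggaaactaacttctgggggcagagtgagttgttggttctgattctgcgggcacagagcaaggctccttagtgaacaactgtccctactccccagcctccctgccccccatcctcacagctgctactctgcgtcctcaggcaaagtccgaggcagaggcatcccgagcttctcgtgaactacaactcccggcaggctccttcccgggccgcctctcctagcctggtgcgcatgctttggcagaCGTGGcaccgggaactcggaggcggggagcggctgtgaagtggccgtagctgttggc
Pdia6: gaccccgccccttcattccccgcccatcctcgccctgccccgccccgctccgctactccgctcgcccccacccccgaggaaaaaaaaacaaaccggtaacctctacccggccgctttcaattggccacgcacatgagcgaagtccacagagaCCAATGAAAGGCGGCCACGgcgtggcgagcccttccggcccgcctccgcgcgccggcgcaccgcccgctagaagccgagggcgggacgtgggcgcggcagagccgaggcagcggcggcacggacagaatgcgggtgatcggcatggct
Selenos: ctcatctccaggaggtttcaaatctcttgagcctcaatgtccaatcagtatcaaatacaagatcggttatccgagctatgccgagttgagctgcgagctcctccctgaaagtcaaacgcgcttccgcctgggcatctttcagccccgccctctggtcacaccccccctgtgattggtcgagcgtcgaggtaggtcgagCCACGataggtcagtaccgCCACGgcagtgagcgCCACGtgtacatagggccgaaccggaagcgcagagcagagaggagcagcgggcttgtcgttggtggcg

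The full ERSE, searched on both strands as CCAAT and CCACG with 9 bases of any kind between them, was found in 39 of 32851 RefSeq promoter windows (0.119%). Promoter windows were listed for 40 of the 46 genes, some with several starts, and 9 of their 44 windows (20.5%) held it. Each site is written below in its own 5′ to 3′ sense, with the fixed letters of the element in capitals.
Hspa5: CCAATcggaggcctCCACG
Hsp90b1 upstream site: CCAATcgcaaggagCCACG
Hsp90b1 downstream site: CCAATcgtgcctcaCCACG
Dnajc3: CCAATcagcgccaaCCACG
Creld2: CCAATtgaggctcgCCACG
Calr: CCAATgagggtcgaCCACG
Canx: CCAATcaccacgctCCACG
Pdia6: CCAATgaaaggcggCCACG
Syvn1: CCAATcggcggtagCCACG
Derl3: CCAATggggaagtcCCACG
The site began 65 bases upstream of the start in Hspa5 and 98 bases upstream in Pdia6, and Hsp90b1 held a pair, at 212 bases on the gene's strand and at 89 bases on the opposite strand. The shorter ERSE-II, ATTGG and CCACG with 1 base of any kind between them, was in the windows of Dnajb11 and Herpud1 and in 0.0365% of all windows. The core of the UPR element, TGACGTGG, was in Sec24d, Txndc11 and Txndc5, and in 0.676% of all windows. The CHOP-ATF4 element, TGATGNAAT, was in none of the 44 windows and in 0.965% of all. CCACG alone, which the ERSE and ERSE-II contain, was in 77.3% of the 44 windows and 32.8% of all. A match is a run of letters and not a measured binding site, and no binding was measured here. Hyou1, Manf, Fkbp10, Derl1, Atf6 and Sec61a1 had no entry.

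The first comparison asked how RNA levels of these genes differed between SIRT7-KO and WT cells. By edgeR's quasi-likelihood test with Benjamini-Hochberg adjustment over 16678 tested genes, 5 of the 46 were higher in KO at an adjusted p under 0.05: Pdia5, Pdia6, Hsp90b1, Selenos and Manf. None was lower, and 41 did not pass the test, although 25 of the 46 had an unadjusted p under 0.05, against 26.3% of all tested genes. Over all tested genes, 3.54% were called higher and 3.19% lower. All 46 genes passed the filter on low counts. The fitted log2 fold change (KO over WT) was above 0 for 36 of the 46, against 51.6% of all tested genes, and its median was 0.28, against 0.02 over all tested genes. Every KO library was above every WT library for 23 of the 46 and below for 3, against 15.7% above and 20.2% below over all genes. Summed over the 46 genes, levels were 11985, 11998 and 13038 CPM in KO 2, 9 and 22, and 10129, 10461 and 10208 CPM in WT 1, 2 and 3. The KO sums lay above all WT sums, beside the higher collagen RNA given above, whose part in the result was not tested.

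**Figure D1:**
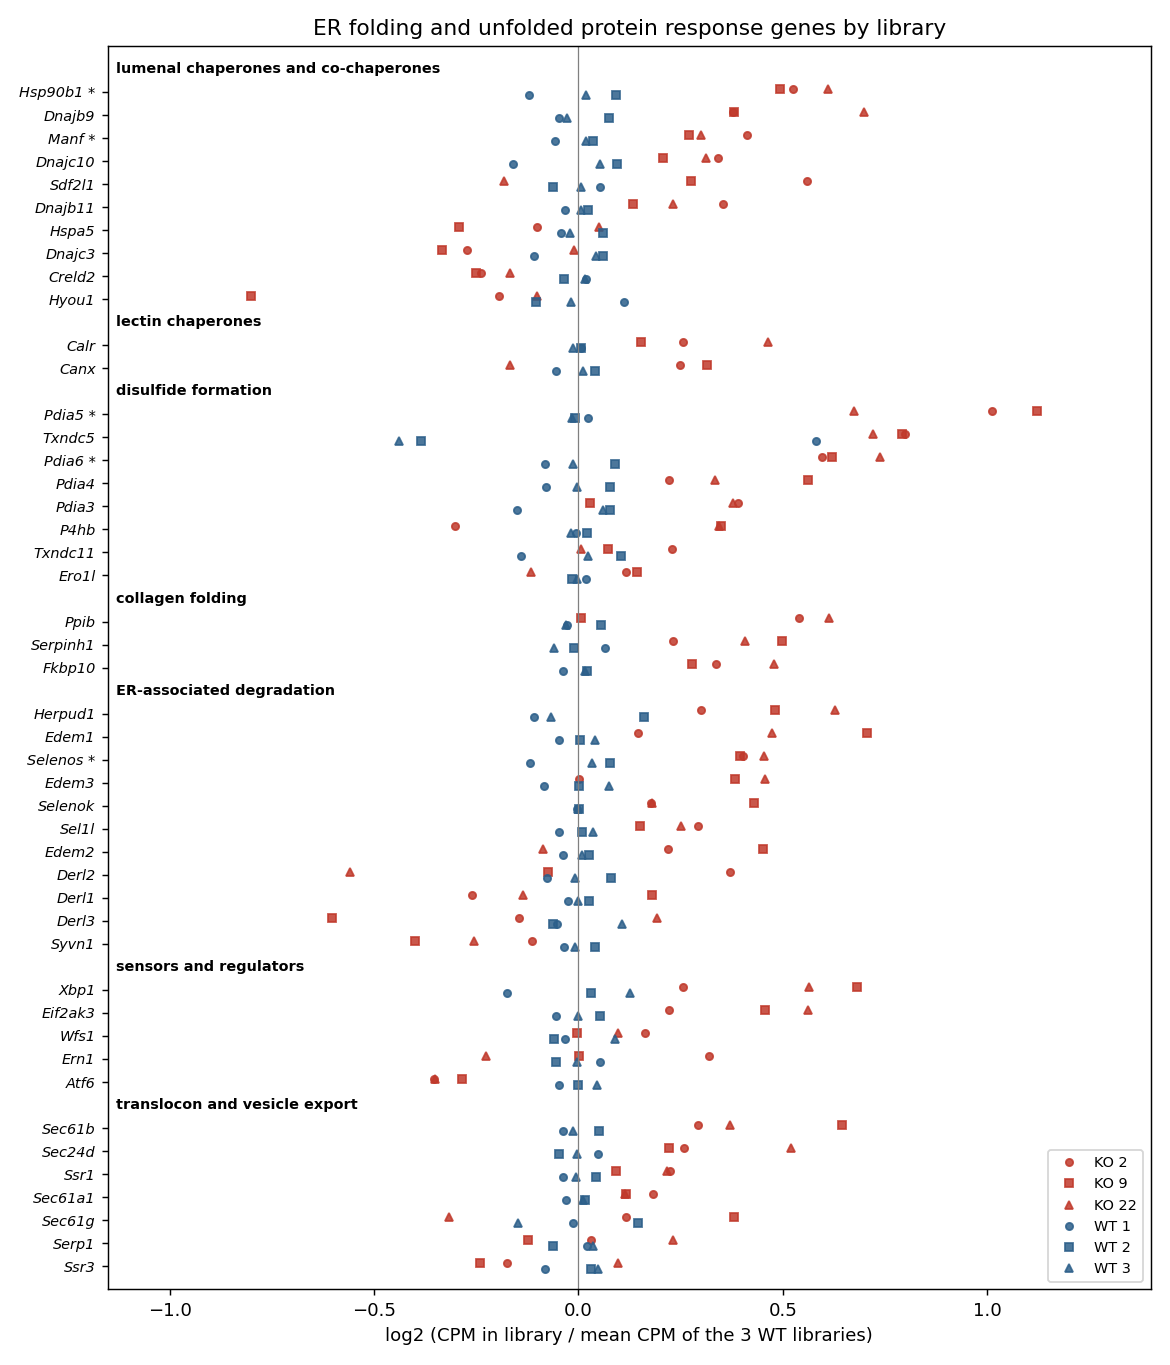
Each row is a gene and each point a library, plotted as log2 of its CPM over the mean CPM of the 3 WT libraries, with KO in red and WT in blue and an asterisk on the 5 genes called. KO points lie to the right of 0 for most rows and spread more widely than WT points, and Hyou1 in KO 9 lies far to the left.

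Leaving out any WT library ended all 5 calls: without WT 1, Txndc5 was the only gene of the 46 called (against 0.151% of all genes higher), and without WT 2 or WT 3 none was (0.128% and 0.145% of all genes), and calls over all genes were 51, 45 and 50 in those fits, against 1123 with all libraries. Leaving out KO 2 gave 15 genes higher (4.59% of all genes). DESeq2 gave 14 higher (8.26% of all genes) and 1 lower, Atf6 (7.62% of all genes), and no filter on low counts gave 3 higher (0.668% of all genes), without Selenos and Manf. The limma-voom fit gave 6 higher (3.99% of all genes), with Fkbp10 and Sec61b and without Selenos (adjusted p 0.0567). With each chromosome's median change taken out, 9 genes were higher (2.99% of all genes), among them Pdia5, Pdia6 and Selenos, while Hsp90b1 (adjusted p 0.0615) and Manf (adjusted p 0.185) were not called. Over all alternatives, adjusted p ran from 9.9e-05 to 0.136 for Hsp90b1, from 0.0117 to 0.214 for Manf, from 8.9e-08 to 0.104 for Pdia5, from 1.9e-06 to 0.112 for Pdia6 and from 0.0040 to 0.191 for Selenos.

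Among the 10 lumenal chaperones and their co-chaperones, 2 rose, against 3.54% of all tested genes. Hsp90b1 encodes GRP94, the HSP90-type chaperone of the ER lumen. Its level was 1649, 1611 and 1748 CPM in KO 2, 9 and 22, and 1054, 1220 and 1161 CPM in WT 1, 2 and 3. The groups did not overlap, and all KO libraries were similar. The log2 fold change was 0.58 (SE 0.09, adjusted p 0.0215). Hsp90b1 shares 415 exon bases with the opposite-strand pseudogene 1810014B01Rik, and the sources used here do not state whether counting used strand, so a share of reads could belong to either. Manf, which encodes a small ER protein that is secreted on calcium loss, had 282, 256 and 261 CPM in KO 2, 9 and 22, and 204, 217 and 215 CPM in WT 1, 2 and 3. Again no KO library fell within the WT range, and the log2 fold change was 0.36 (SE 0.08, adjusted p 0.0454). Manf overlaps exons of Dcaf1 by 146 bases on the opposite strand.

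Hspa5, the chaperone BiP that binds the sensors in unstressed cells, did not pass the test. It had 888, 778 and 987 CPM in KO 2, 9 and 22, and 925, 993 and 940 CPM in WT 1, 2 and 3. KO 9 and KO 2 lay below all WT libraries and KO 22 among them, and the log2 fold change was -0.07 (SE 0.11, adjusted p 0.720). Hyou1, a nucleotide exchange factor for BiP, had 4968 counts in KO 9, against 7509 and 8027 in KO 2 and KO 22, and 9285, 8045 and 8546 in WT 1, 2 and 3. Its fold change of -0.30 (adjusted p 0.369) became -0.12 without KO 9. Dnajc3, a BiP co-chaperone that also inhibits PERK, and Creld2, a secreted ER stress protein, had log2 fold changes of -0.17 and -0.19, and Creld2 was below WT in every KO library without passing the test. The other 4, Dnajb9, Dnajb11, Dnajc10 and Sdf2l1, which are BiP co-chaperones or form complexes with them, had fold changes of 0.27 to 0.53. The first 3 of them were above WT in every KO library, as were 15.7% of all tested genes, and none passed the test.

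Calr and Canx encode calreticulin and calnexin, the lectin chaperones that hold glycoproteins by their sugars. Calr was the most abundant of the 46 per kilobase of exon, with a mean of 628 CPM per kb in KO and 511 in WT. Its level was 1757, 1636 and 2030 CPM in KO 2, 9 and 22, and 1479, 1478 and 1458 CPM in WT 1, 2 and 3. All KO libraries were above the WT range, which was narrow, and KO 22 was the highest. The fold change of 0.33 (SE 0.11) did not pass the test (adjusted p 0.111). Canx had a fold change of 0.18 (SE 0.13), with KO 22 below and KO 2 and KO 9 above all WT libraries.

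Of the 8 genes of disulfide formation, 2 rose and all 8 had fold changes above 0, against 3.54% and 51.6% of all tested genes. With chromosome medians taken out, Txndc11 was at -0.03. Pdia5 encodes a protein disulfide isomerase reported to act on ATF6. It had 81.2, 87.6 and 64.2 CPM in KO 2, 9 and 22, and 40.9, 40.0 and 39.8 CPM in WT 1, 2 and 3. All KO libraries lay well above WT, KO 22 least so, and the log2 fold change of 0.98 (SE 0.12, adjusted p 0.0134) was the highest of the 46. Pdia6 encodes the isomerase P5, which damps IRE1 and PERK signalling. It had 455, 463 and 502 CPM in KO 2, 9 and 22, and 285, 320 and 298 CPM in WT 1, 2 and 3. The groups were well apart, with a log2 fold change of 0.69 (SE 0.09, adjusted p 0.0143). Over all alternatives, the fold change ran from 0.80 to 1.08 for Pdia5 and from 0.58 to 0.72 for Pdia6, with both calls lost when any WT library was left out.

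Txndc5, an isomerase with several thioredoxin domains, showed a WT library apart from the others. It had 28065, 28070 and 26599 counts in KO 2, 9 and 22, and 24108, 12416 and 11973 counts in WT 1, 2 and 3. All KO libraries were above WT, but WT 1 was close to KO, and the fold change of 0.80 (SE 0.28) did not pass the test (adjusted p 0.136). Without WT 1 it was 1.22 (adjusted p 0.0299, in a range of 0.0299 to 0.347 over the alternatives), in the fit in which the 5 calls above were lost. The allele table held other totals for this gene: its summed counts were 1.95 times the gene table's in WT 2 and 0.516 times in KO 2, and near 1 time in the rest, so the level of Txndc5 is uncertain.

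P4hb encodes the canonical isomerase PDI, which is also the beta subunit of collagen prolyl 4-hydroxylase. It had 727, 1142 and 1138 CPM in KO 2, 9 and 22, and 893, 910 and 885 CPM in WT 1, 2 and 3. KO 2 lay below every WT library and KO 9 and KO 22 above, so the group fold change of 0.20 (SE 0.19) had an adjusted p of 0.550. Without KO 2 the fold change was 0.39 and the adjusted p 0.0285, the lowest over the alternatives, which reached 0.820. Pdia4 (ERp72) had a fold change of 0.41 (adjusted p 0.0768) with KO above WT in every library. Pdia3 (ERp57, the partner of calnexin and calreticulin), Txndc11 and Ero1l (the oxidase that recharges PDI) had fold changes of 0.31, 0.14 and 0.08, with overlapping groups.

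**Figure D2:**
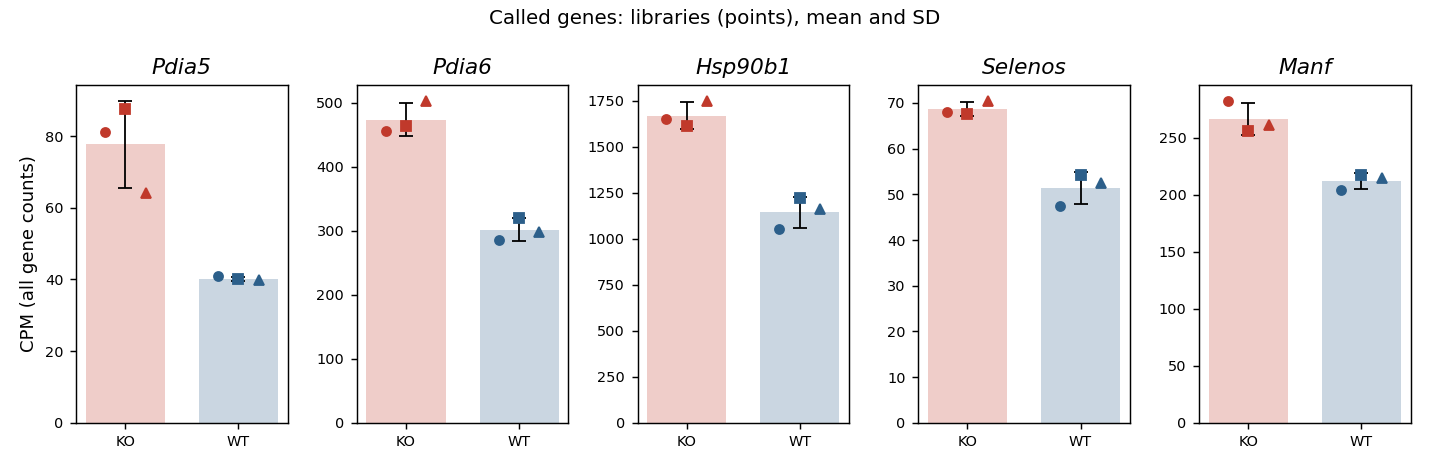
Bars give the mean CPM of 3 KO and 3 WT libraries for the 5 genes called higher in KO, error bars the SD, and points the libraries (circle KO 2 or WT 1, square KO 9 or WT 2, triangle KO 22 or WT 3). In each panel the lowest KO point is above the highest WT point.

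The 3 genes of collagen folding all had positive fold changes of similar size, against 51.6% positive over all tested genes, and none passed the test. Serpinh1 encodes HSP47, the chaperone of procollagen. It had 571, 687 and 645 CPM in KO 2, 9 and 22, and 509, 483 and 466 CPM in WT 1, 2 and 3. All KO libraries were above WT, and the fold change was 0.42 (SE 0.10, adjusted p 0.0630). The allele table's total for this gene was 2.84 times the gene table's in WT 2, and 0.869 to 1.22 times in the rest. The level of Serpinh1 is thus uncertain. Fkbp10, a prolyl isomerase for collagen, had a fold change of 0.40 (SE 0.09, adjusted p 0.0509), just outside the threshold, and also had every KO library above WT. Ppib, cyclophilin B, had 304 CPM in KO 9, against 440 and 463 in KO 2 and KO 22, and 297 to 314 CPM in WT. Its fold change was 0.44 (adjusted p 0.152), and 0.61 without KO 9 (adjusted p 0.0184, in a range of 0.0184 to 0.363 over the alternatives). Ppib shares 825 exon bases with opposite-strand Snx22.

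Of 11 genes of ER-associated degradation, Selenos alone was called, against 3.54% of all tested genes called higher. Selenos encodes a selenoprotein that links the membrane channel to the p97 ATPase. It had 68.0, 67.6 and 70.4 CPM in KO 2, 9 and 22, and 47.3, 54.2 and 52.6 CPM in WT 1, 2 and 3. KO libraries were close to one another and above WT, with a log2 fold change of 0.45 (SE 0.09, adjusted p 0.0394). Herpud1, which organises the ligase complex, and Edem1, which takes mannose-trimmed glycoproteins to degradation, had fold changes of 0.51 and 0.49 (adjusted p 0.0675 and 0.101). For both genes, and for Sel1l and Selenok, every KO library was above every WT library, as for 15.7% of all tested genes. Edem2 and Edem3 had fold changes of 0.24 and 0.33 with overlapping groups. The ligase Syvn1 (HRD1) was below WT in every KO library, at -0.22 (adjusted p 0.214), while its partner Sel1l was at 0.26. The channel genes Derl1 and Derl2 had fold changes of -0.03 and -0.01. Derl3 had 11 to 19 counts in KO and 16 to 18 in WT, too few to place.

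None of the 5 sensors and regulators passed the test, and their fold changes ran from -0.30 to 0.55. Xbp1, the factor whose RNA is spliced by IRE1, had 30.8, 41.4 and 38.2 CPM in KO 2, 9 and 22, and 22.9, 26.4 and 28.2 CPM in WT 1, 2 and 3. Every KO library was above WT, and the fold change was 0.55 (SE 0.15, adjusted p 0.0810). The allele table's totals for this gene were 1.31, 2.04 and 1.86 times the gene table's in KO 2, 9 and 22. In WT 1, 2 and 3 they were 1.88, 1.84 and 1.65 times, so the level of Xbp1 is uncertain. Eif2ak3 had 23.8, 28.0 and 30.1 CPM in KO 2, 9 and 22, and 19.7, 21.1 and 20.4 CPM in WT 1, 2 and 3. It was also above WT in every KO library (fold change 0.45, SE 0.13, adjusted p 0.0870). Atf6 had 88.3, 92.5 and 88.5 CPM in KO 2, 9 and 22, and 109, 113 and 116 CPM in WT 1, 2 and 3. It was below WT in every KO library, and the fold change of -0.30 (SE 0.08) had an adjusted p of 0.0712. Ern1 had 25.8, 20.7 and 17.7 CPM in KO 2, 9 and 22, and 21.5, 19.9 and 20.6 CPM in WT 1, 2 and 3. Its KO libraries lay on both sides of WT (fold change 0.08, SE 0.15). Wfs1, an ER membrane protein that restrains ATF6, had 27.4, 24.4 and 26.2 CPM in KO 2, 9 and 22, and 23.9, 23.5 and 26.0 CPM in WT 1, 2 and 3, with overlapping groups (fold change 0.12, SE 0.11).

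The 7 genes of the translocon and vesicle export gave no call, and 6 had fold changes above 0, against 51.6% of all tested genes. Sec61b, a subunit of the channel, was at 0.48 (SE 0.11, adjusted p 0.0600), and Sec24d, a cargo-binding subunit of the COPII coat, at 0.37 (adjusted p 0.0995). The channel pore gene Sec61a1 was at 0.17 and Sec61g at 0.12. Ssr1 and Ssr3, subunits of the translocon-associated complex, were at 0.21 and -0.06, and Serp1, which stabilises membrane proteins during stress, was at 0.09. Every KO library was above WT for Sec61b, Sec24d, Sec61a1 and Ssr1, as for 15.7% of all tested genes.

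Transcript-level estimates gave no call by edgeR's quasi-likelihood test: 0 of 136 tested transcripts of the 46 genes passed, against 0.335% of 44821 tested transcripts. An unadjusted p under 0.05 was found for 34 of the 136, against 11.8% of all transcripts, and DESeq2 called 27, against 7.72% of all transcripts. Hsp90b1-201 held over 99% of its gene's counts, with 100539, 98822 and 106694 in KO 2, 9 and 22, and 64175, 74685 and 71207 in WT 1, 2 and 3. It missed the threshold with a log2 fold change of 0.59 (adjusted p 0.0536), as did Pdia5-201 at 0.99 (adjusted p 0.0894) and Manf-202 at 0.34 (adjusted p 0.224). Selenos was divided among transcripts in a way that differed between libraries of one group: the nonsense-mediated decay transcript Selenos-202 had 22, 68 and 367 counts in KO 2, 9 and 22, and 776, 546 and 40 in WT 1, 2 and 3. For Pdia6, annotated transcripts held 11.3% of the gene's counts, so its transcript Pdia6-204 does not stand for the gene. Xbp1-201, the longest coding transcript, had 1378, 2016 and 1806 counts in KO 2, 9 and 22, and 1114, 1162 and 1366 in WT 1, 2 and 3. All KO libraries were above WT, and the adjusted p was 0.368. The annotated transcripts do not separate spliced from unspliced Xbp1 RNA, so IRE1 activity cannot be read from these tables.

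Fold changes were then set beside the promoter elements shown at the start. Over all tested genes, 51.6% had a fold change above 0, the median was 0.02 and 3.54% were called higher. Of the 9 genes with a full ERSE, 4 had a fold change above 0, near that share. Their median was -0.07, and Hsp90b1 and Pdia6 were called. Of the 31 genes with a listed promoter and no full ERSE, 29 had a fold change above 0. Their median was 0.31, and Pdia5 and Selenos were called. The 31 included Herpud1 and Dnajb11, with ERSE-II, and Sec24d, Txndc5 and Txndc11, with the core of the UPR element. Lack of the exact full ERSE in a window of 300 bases is thus not lack of any ER stress element. The difference between the 9 and the 31 was not tested. With chromosome medians taken out, 7 of the 9 and 29 of the 31 were above 0, with medians of 0.09 and 0.32. Pdia6 was the 1 gene called of the 9, against 8 of the 31 and 2.99% of all tested genes called higher. The share of all genes above 0 was not counted with chromosome medians taken out. Hspa5, Dnajc3, Creld2, Syvn1 and Derl3 held the element and had values below 0, of which Hspa5, Creld2 and Syvn1 turned positive in that fit, and Derl3 had at most 19 counts. Herpud1 and Dnajb11, with ERSE-II, were at 0.51 and 0.27, and neither passed the test.

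**Figure D3:**
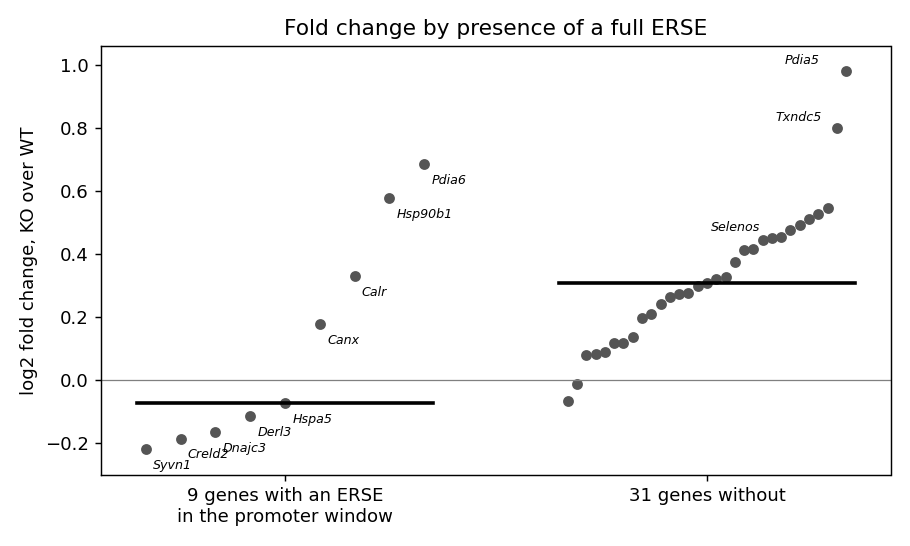
Points give the fitted log2 fold change (KO over WT) of the 9 genes with a full ERSE in the promoter window and the 31 without, ordered by value, and thick lines the medians of -0.07 and 0.31. The genes with the element lie between -0.22 and 0.69, those without between -0.06 and 0.98, and with chromosome medians taken out the medians were 0.09 and 0.32.

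Other genes of the same pathways were counted in lists chosen by function. Among all 16678 tested genes, 3.54% were called higher and 3.19% lower, so 1 call in a list this short says little. Of 12 COPII coat genes, 3 rose and none fell: the inner coat subunit Sec23a (log2 fold change 0.79, adjusted p 0.0261), the outer coat subunit Sec31a (0.49, adjusted p 0.0324) and Tfg, which organises ER exit sites (0.53, adjusted p 0.0355). Of 17 collagen-modifying and folding genes, 2 rose, the prolyl hydroxylase subunit P4ha1 (0.65, adjusted p 0.0332) and the prolyl isomerase Fkbp9 (0.61, adjusted p 0.0238), and 1 fell, Fkbp11 (-0.74, adjusted p 0.0231). The list median was 0.38. Os9, the lectin of the degradation complex, rose (0.72, adjusted p 0.0216), the only call among 17 other tested degradation genes. Of 12 oligosaccharyltransferase genes, Tusc3 alone rose (0.55, adjusted p 0.0288). Of 20 other translocon and signal peptidase genes, Sec63 rose (0.42, adjusted p 0.0362) and Sec61a2 fell (-0.46, adjusted p 0.0427). The peroxiredoxin Prdx4 rose (0.46, adjusted p just under 0.05), alone among 10 tested thiol oxidoreductases.

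In the PERK and ATF4 branch none of 14 tested genes rose and 2 fell, against 3.54% higher and 3.19% lower over all tested genes. The list median was -0.12. Atf4, the effector of the branch, had 310, 367 and 414 CPM in KO 2, 9 and 22, and 614, 612 and 607 CPM in WT 1, 2 and 3. KO libraries varied but all lay far below the nearly equal WT libraries, and the log2 fold change was -0.71 (SE 0.13, adjusted p 0.0306). Atf4 lies on chromosome 15, whose median fold change was -0.24, and with chromosome medians taken out its adjusted p was 0.0573, in a range of 0.00017 to 0.153 over the alternatives. Only RNA was measured, so ATF4 protein and PERK activity cannot be read from these values. Ppp1r15b, the constitutive phosphatase subunit that reverses PERK's mark on eIF2, fell as well (-0.41, adjusted p 0.0441). No gene was called among 12 calnexin cycle enzymes and cargo receptors, 8 membrane-bound transcription factors and their proteases, or 16 cytosolic heat shock genes, whose list medians were 0.15, 0.13 and -0.03. At the shares called over all genes, the lack of a call in lists of this size says little. Leaving out WT 1, WT 2 or WT 3 ended all 13 calls named from these lists, no filter on low counts ended 10 of them and chromosome medians taken out ended 8.

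The second comparison asked which chromosome copy gave the reads. Allele-assigned counts are labelled genome 1 and genome 2, and the sources used here do not state which strain each stands for. Of the 46 genes, 42 had enough allele-assigned counts to test. By edgeR's quasi-likelihood test, with an adjusted p under 0.05, 10 had shifted toward genome 1 in KO (Hsp90b1, Pdia4, Ppib, Edem3, Atf6, Eif2ak3, Sec61a1, Ssr3, Serp1 and Sec24d), against 11.3% of all 12984 tested genes. A shift toward genome 2 was found for 5 (Dnajb11, Sdf2l1, Calr, Herpud1 and Selenos), against 11.7% of all. The highest shift toward genome 1 among those called was in Eif2ak3, where genome 1 gave 71.2%, 75.3% and 66.8% of allele-assigned counts in KO 2, 9 and 22, and 42.3%, 38.2% and 40.7% in WT 1, 2 and 3. Pdia4, on the same chromosome, had 68.3%, 70.4% and 65.2% in KO 2, 9 and 22, and 38.8%, 38.2% and 38.5% in WT 1, 2 and 3. Groups were far apart for both genes, and 95% Wilson intervals for Pdia4, which cover counting error only, ran from 63.8% to 71.7% over KO and from 36.7% to 40.5% over WT. In the other direction, Selenos had 27.02%, 26.94% and 27.95% in KO 2, 9 and 22, and 56.89%, 50.04% and 54.33% in WT 1, 2 and 3. Hsp90b1 had 53.4%, 51.6% and 53.0% in KO 2, 9 and 22, and 41.1%, 41.1% and 40.8% in WT 1, 2 and 3.

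These shifts were shared with the chromosomes on which the genes lie. The median share from genome 1 over chromosome 6, which carries Eif2ak3, Pdia4, Sec61a1 and Edem1, was 65.9%, 67.0% and 64.9% in KO 2, 9 and 22, and 37.4%, 37.8% and 37.7% in WT 1, 2 and 3. On chromosome 7, with Selenos and Serpinh1, it was 32.99%, 33.04% and 33.01% in KO 2, 9 and 22, and 60.3% to 60.4% in WT. On chromosome 10, with Hsp90b1 and Derl3, it was 50.5%, 48.5% and 50.4% in KO 2, 9 and 22, and 38.5%, 38.8% and 39.1% in WT 1, 2 and 3. Across the 42 genes, the log2 allelic ratio (KO over WT) of a gene and the median of its chromosome had a Pearson r of 0.86 and a Spearman rho of 0.85. This is a description across genes, which share chromosomes and libraries. With chromosome medians taken out, none of the 42 was called by edgeR's quasi-likelihood test and 7 had an unadjusted p under 0.05, against 0.562% of all genes called and 11.9% with an unadjusted p under 0.05. The same relation for total level was weaker, with a Pearson r of 0.41 over 46 genes. Beside the called genes, the chromosome median log2 fold change was 0.20 for Pdia5, 0.13 for Pdia6, 0.18 for Hsp90b1, -0.04 for Selenos and 0.18 for Manf. WT libraries were nearly equal in every chromosome's share. KO 2, 9 and 22 differed from one another on some chromosomes, with 59.1%, 32.5% and 64.6% from genome 1 on chromosome 11. Whether the chromosome-wide differences between KO and WT belong to SIRT7 loss or to the cell lines cannot be told apart.

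**Figure D4:**
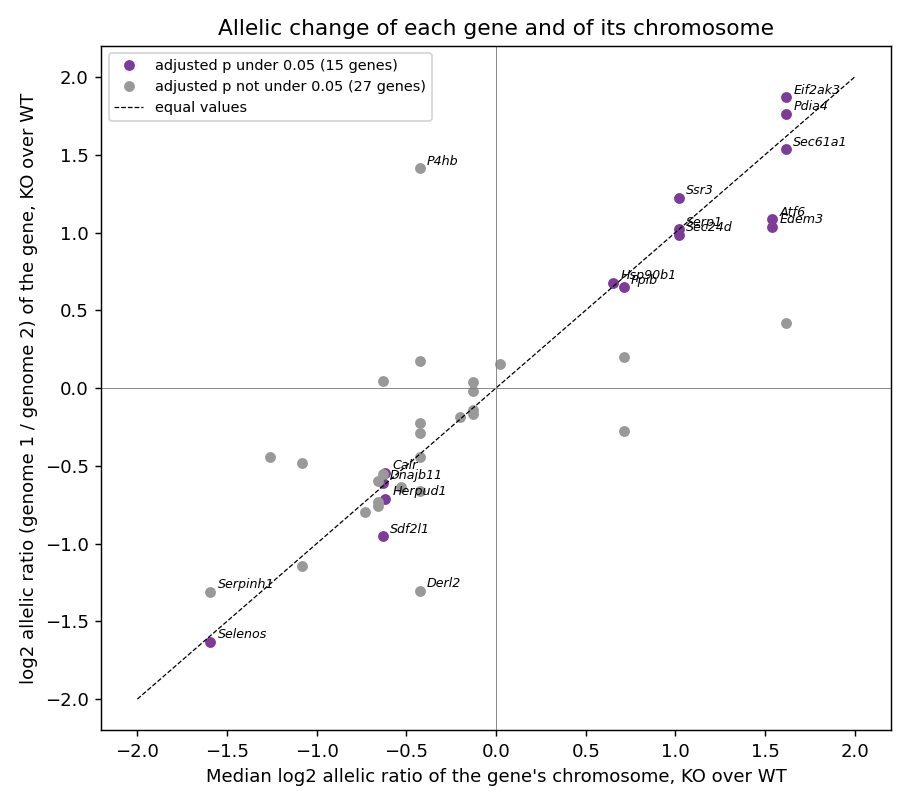
Each point is 1 of 42 genes, with the median log2 allelic ratio (genome 1 over genome 2, KO over WT) of its chromosome on the horizontal axis and its own on the vertical axis, and the 15 genes called in purple. Most called genes lie close to the dashed line of equal values, and P4hb, Edem1, Manf and Derl2, none of them called, lie farthest from it.

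Among genes not called for their alleles, Manf and Pdia3 gave almost only genome 2 counts in every library, with 0.685% to 0.797% from genome 1 in KO and 0.645% to 1.24% in WT for Manf, and at most 0.0685% in any library for Pdia3. Creld2, Pdia6, Txndc5 and Derl3 had too few allele-assigned counts to test, so the alleles of the called gene Pdia6 are unknown here. For Xbp1, Serpinh1, Edem1, Sel1l, Wfs1, Derl3 and Txndc5, the summed allele table departed from the gene table by more than 1.5 times in at least 1 library. Both their levels and their shares are uncertain.

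P4hb, the gene whose KO libraries disagreed in level, also disagreed in alleles. Genome 1 gave 99.8%, 36.3% and 69.0% of its allele-assigned counts in KO 2, 9 and 22, and 58.9%, 57.2% and 58.2% in WT 1, 2 and 3. In KO 2 only 20 counts came from genome 2, against 13691 from genome 1, and the 95% Wilson interval of the share was 99.8% to 99.9%. P4hb lies on chromosome 11 (chr11:120560298-120573253, minus strand), and its end is 45.1 kb from the start of Sirt7 (chr11:120618372-120625240). Within 1 Mb of Sirt7, a window chosen after these values were seen, 47 of 50 genes had at least 95% genome 1 counts in KO 2, none in KO 9 or KO 22, and 1, 0 and 0 in WT 1, 2 and 3. The median log2 ratio of CPM in KO 2 over the WT mean was -0.62 over these 50 genes, and 0.08 over 795 genes farther than 8 Mb away. For P4hb itself this ratio was -0.30. The 47 genes 4 to 8 Mb before Sirt7 had a median ratio of 0.71 and a median genome 1 share of 31.4% in KO 2, against 50%, 51.1% and 50.5% in WT 1, 2 and 3. In KO 2 the allele share of P4hb, itself 1 of the 50 genes, thus went with those of its neighbours. Its level was below the WT mean by less than the median of the 50. What altered the stretch around Sirt7 in KO 2 was not tested. The other 6 genes of the list on chromosome 11 (Canx, Fkbp10, Derl2, Xbp1, Ern1 and Sec61g) lie at least 14.1 Mb away.

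**Figure D5:**
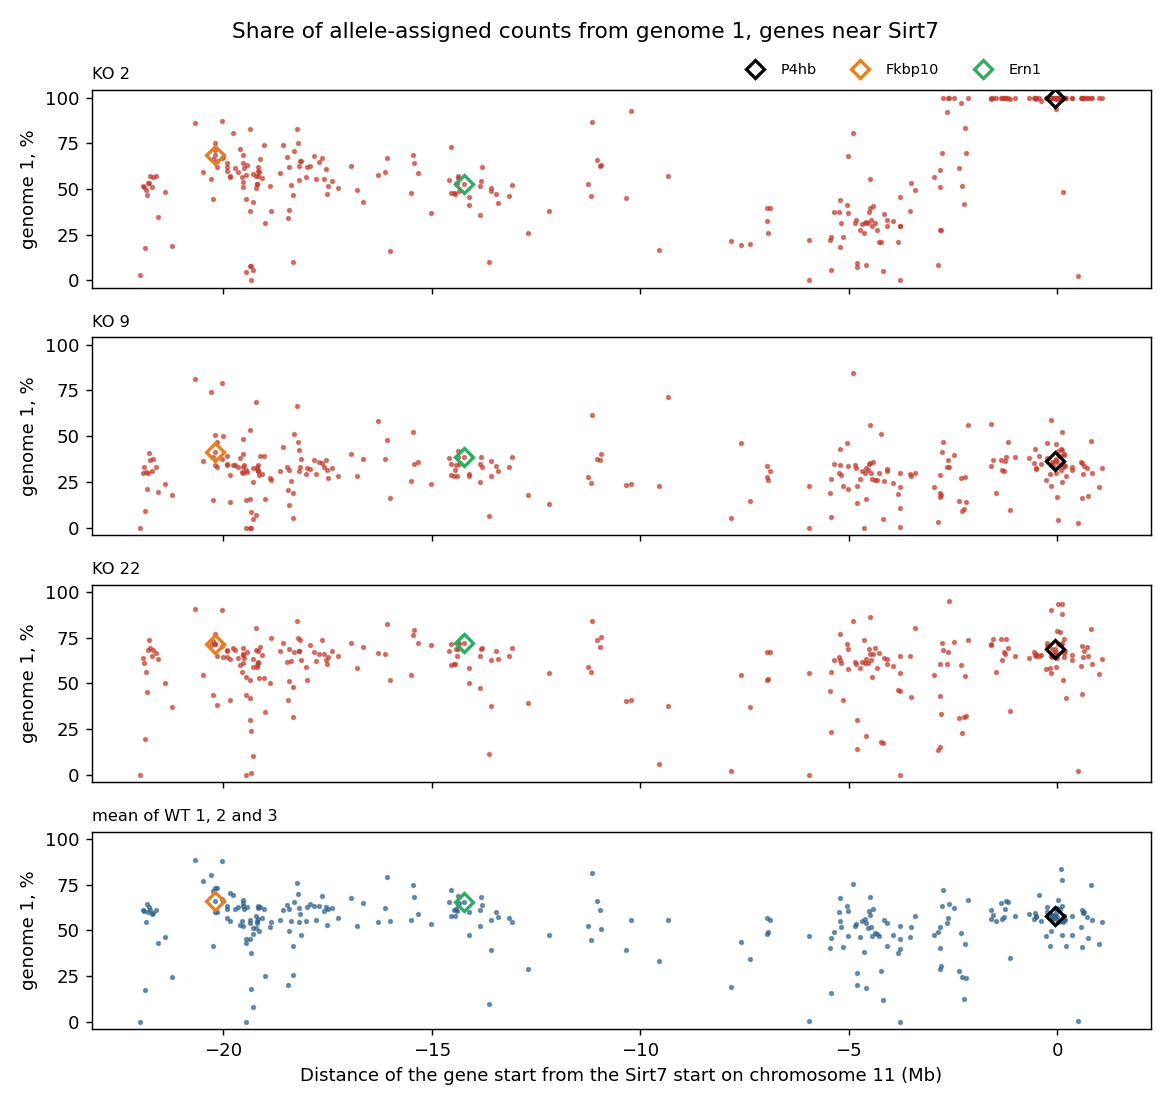
Each point is a gene with its share of allele-assigned counts from genome 1 (percent), by distance of its start from the Sirt7 start in megabases, in KO 2, KO 9, KO 22 and as the mean of WT 1, 2 and 3. In KO 2 nearly all genes close to Sirt7, P4hb among them, sit at 100%, and in the other panels P4hb lies among its neighbours at intermediate shares.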

How the data were processed

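RNA was extracted with TRIZOL and polyA-selected, per the labels' protocols. Files deposited by the authors hold estimated counts, for genes, for transcripts, and for genes divided between genome 1 and genome 2. The submitters' processing notes name the aligner HISAT2 2.1.0, StringTie 1.3.3 and SAMtools 0.1.19, the trimmer Trimmomatic 0.36, FastQC 0.11.3, and DESeq2 1.32.0, with builds mm10 and GRCm38. The settings of each step, the annotation and any use of strand are not stated there. All deposited values were whole numbers; annotated genes held 99.97% of gene counts and the other rows were kept, and the allele-split transcript table was not used here.

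KO columns were matched to the libraries titled c2, c9 and c22 by number only. Counts of 3 KO and 3 WT libraries, each of 61065582 to 61506413, were tested with edgeR 4.0.16 (quasi-likelihood, TMM scaling, default filter on low counts, Benjamini-Hochberg adjustment over all tested features, threshold 0.05) in R 4.3.3. Allelic ratios were tested in a model with a term per library, over genes averaging 20 or more allele-assigned counts per library. CPM used the total gene counts, and levels per kb used merged exons. Alternatives were DESeq2 1.42.0, limma 3.58.1 (voom with group weights), RLE scaling, no filter, chromosome medians taken out, and leaving out each library. All 46 genes are named; values in every library are given for genes called, for sensors and Xbp1, and for the 5 highest per kb, with a few others (Hyou1, Txndc5, Ppib) added after their values were seen. From other lists up to 3 called genes of smallest p are named. The 46 genes and all lists were chosen with earlier results of these data known, and 1 list gene, March6, was not matched. Intervals cover counting error only.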

Additional observations from a re-analysis of the deposited data

How the results depend on the processing

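Calls depended on the test and on single libraries. Over all genes, no filter gave 396 calls, DESeq2 2590, and leaving out 1 library 45 to 2482 (fewest without a WT library, most without KO 22), against 1123. Of the 46 genes, 3 were higher with no filter, 14 by DESeq2 (with 1 lower), 9 with chromosome medians taken out, and 0 to 15 when 1 library was left out; none was lower in the other fits. Allelic calls among the 46 genes were 15 in the main fit, against 23% of all tested genes. They were 0 with chromosome medians taken out, against 0.562% of all. Without 1 library they were 9 to 17, and the share over all genes was not counted in those fits. Transcript calls were 27 by DESeq2 and 0 in every other fit. RLE scaling gave the same 5 genes. The cause of these differences was not tested.

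No sign changed among the 5 called genes. With chromosome medians taken out, log2 fold changes changed sign to 0.0175 (Hspa5), 0.0871 (Creld2), -0.0345 (Txndc11), 0.0055 (Syvn1), 0.239 (Derl1) and 0.0460 (Ssr3), and allelic ratios to 0.0087 (Dnajb11), 0.0743 (Calr), -0.0763 (Ppib), -0.458 (Edem3), -0.408 (Atf6), -0.0477 (Sec61a1) and -0.0088 (Sec24d), measured from the chromosome median. Leaving out 1 library took the fold change through 0 for genes not called: from -0.180 to 0.0072 for Hspa5, -0.167 to 0.0707 for Derl1, -0.257 to 0.177 for Derl2, -0.341 to 0.0629 for Derl3, -0.0677 to 0.183 for Ern1, -0.0592 to 0.269 for Sec61g and -0.0296 to 0.165 for Serp1.

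No paired analysis was possible because the labels give no pairs. The KO numbers 2, 9 and 22 come from the titles c2, c9 and c22, and the WT numbers 1, 2 and 3 are replicate numbers. The shared number 2 therefore does not pair KO 2 with WT 2. With 3 libraries a group, an exact permutation test of a single value could not go below 0.1. KO libraries varied more than WT libraries. If the WT libraries are repeats of one culture, their spread understates that between cultures.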
